A study of Mus musculus with 6 samples.

Results

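The collagen genes were examined in white fat from beneath the skin of mice (subcutaneous white adipose tissue), across 6 RNA-seq libraries. Members were taken by symbol alone, as every row of the expression table whose name is Col, a number, a and a number, which gave 44 of 36144 gene rows. They were grouped by the kind of protein: 11 fibrillar chains, 6 chains of the basement membrane collagen type IV, 6 chains of type VI and 21 others.

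The study compared 3 libraries titled WT with 3 titled Tumor. All 6 carry the treatment label orthotopic transplant, and the genotype label reads MSRA WT for the libraries titled WT and MSRA full-body KO for those titled Tumor. The design text describes pancreatic ductal adenocarcinoma cells placed in the pancreas of both kinds of host, with fat collected 4 to 5 weeks later, whereas the series title speaks of tumor-bearing mice and controls without a tumor. The labels give no strain, age, tumor cell line or Msra allele. Msra, which encodes methionine sulfoxide reductase A, stood at 51.1, 59.1 and 56.3 TPM in the libraries titled WT and at 52.9, 40.0 and 26.9 TPM in those titled Tumor, so that it was not lost in the libraries with the KO label. A value summed over the gene does not show whether an exon is missing. Groups are therefore called by the titles, and each direction below is Tumor minus WT by title.

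Collagens are secreted proteins in which 3 chains wind into a triple helix. Fibrillar collagens (types I, III and V) form the tension-bearing fibres between cells, type IV forms the sheet of the basement membrane around each adipocyte and vessel, and type VI forms beaded filaments next to it. In fat, fibroblasts and adipocyte progenitors make most fibrillar collagen, while adipocytes and endothelial cells also make type IV. Collagen is held to set how far a fat cell can expand, and its excess is known as adipose fibrosis.

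Values are TPM, which gives the share of a gene among the transcripts of a library after its length is allowed for, so that levels of different genes can be set side by side. Each library sums to 1000000 TPM, the number of reads is unknown. In bulk tissue, fewer cells of a type and less RNA per cell cannot be told apart. The 6 libraries differed in which tissue they held, in a way that crosses the groups. Summed over 10 B and plasma cell markers, WT replicate 3 and Tumor replicate 1 held 8.11 and 9.34 TPM, while the other 4 held 977 to 2673 TPM. The defining fat markers were high in all 6, with Adipoq, the adipocyte hormone adiponectin, from 721 TPM in Tumor replicate 3 to 3455 TPM in Tumor replicate 1. The sum of 10 skeletal muscle markers was 15.2 and 11.6 TPM in WT replicates 1 and 3 and 689 to 3373 TPM in the other 4.

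Collagen transcripts were most abundant in 1 library of the Tumor group. The 44 genes summed to 1577, 1059 and 3137 TPM in WT replicates 1 to 3 and to 8186, 2286 and 1053 TPM in Tumor replicates 1 to 3. They thus took from 0.105% of all transcripts in Tumor replicate 3 to 0.819% in Tumor replicate 1. The highest and the lowest library of the series both belong to the Tumor group, and the groups overlap. Means of 1924 ± 1082 TPM for WT and 3842 ± 3812 TPM for Tumor (SD, n = 3) resulted. The mean log2 difference of 0.64 gave an exact two-sided permutation p = 0.7, where 3 against 3 libraries cannot go below 0.1. Without Tumor replicate 1 the difference was -0.16, so its sign rests on that library.

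**Figure D1:**
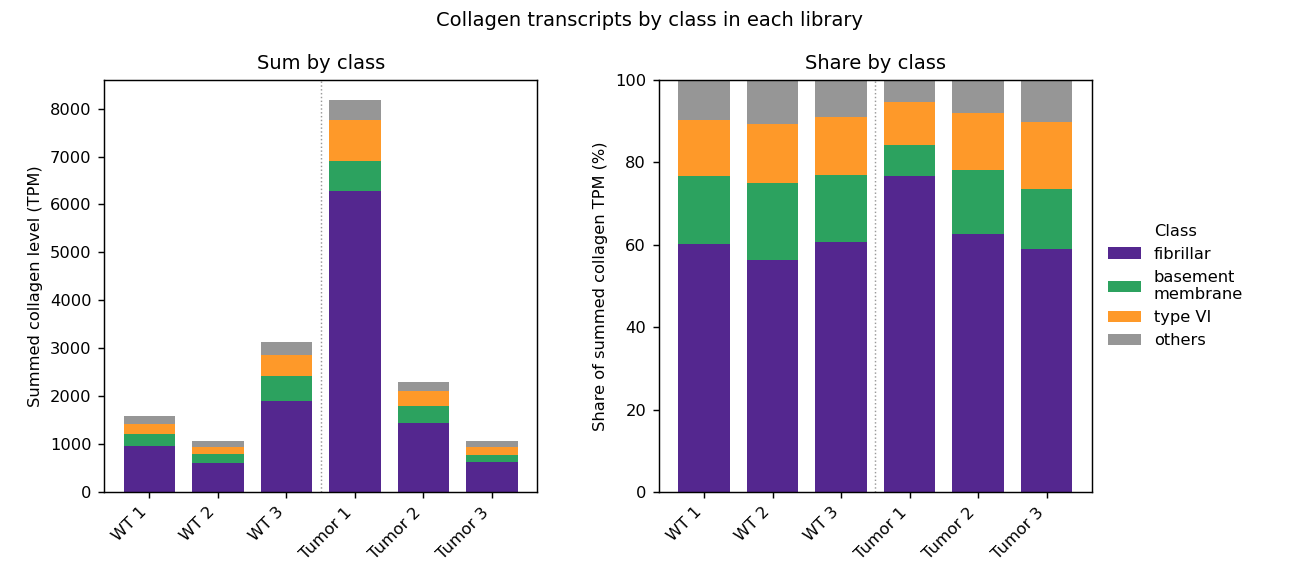
Stacked bars give, for each of the 6 libraries, the collagen TPM summed by class on the left (linear axis from 0) and the share of each class in percent on the right. Tumor 1 stands at 8186 TPM, with the largest fibrillar share of the 6 (76.8%), while the other 5 libraries hold 1053 to 3137 TPM with fibrillar shares of 56.4% to 62.5%.

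Fibrillar chains made up most of this sum. Their share of collagen TPM was 60.1%, 56.4% and 60.6% in the libraries titled WT and 76.8%, 62.5% and 58.9% in those titled Tumor, a difference of 7.03 percentage points (exact permutation p = 0.3). The groups overlap, and without Tumor replicate 1 the difference was 1.67 points. Type IV chains took 16.7%, 18.7% and 16.4% in WT and 7.49%, 15.7% and 14.7% in Tumor. Here every library titled Tumor lay below every library titled WT, with a mean difference of -4.60 points, at the smallest p the design allows (exact permutation p = 0.1). The difference in type IV share was -2.03 points without Tumor replicate 1, and -2.46 points without WT replicate 3 and Tumor replicate 1. Type VI chains took 13.6%, 14.3% and 14.0% against 10.5%, 13.8% and 16.3% (exact permutation p = 0.8). A share within the family does not depend on how libraries are scaled to each other, but the shares of the classes are tied to each other, because they add up to the whole.

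The test of single genes covered 30 of the 44 members, those that reached 1 TPM in 3 or more libraries. Differences are on the log2(TPM + 1) scale, which understates changes of low genes. Of the 30 members 0 passed limma's test at an adjusted p below 0.05, as did 0% of the 14144 genes tested, and the adjusted p-values of the members ran from 0.737 to 0.985. At an unadjusted p below 0.05 there were 0 members, beside 5.45% of all genes (3.75% with Tumor higher). The median difference of the members was 0.47, beside 0.23 for all genes tested. A positive difference was found for 28 of 30, beside 76.8% of all genes. After scaling by median-ratio factors the median of the members was 0.29 and that of all genes 0.03, and 23 of 30 were positive. Without Tumor replicate 1 the median was -0.026 and 14 of 30 were positive. By class the medians were 0.57 over 8 fibrillar genes, 0.21 over 4 type IV genes, 0.52 over 6 type VI genes and 0.46 over 12 others.

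**Figure D2:**
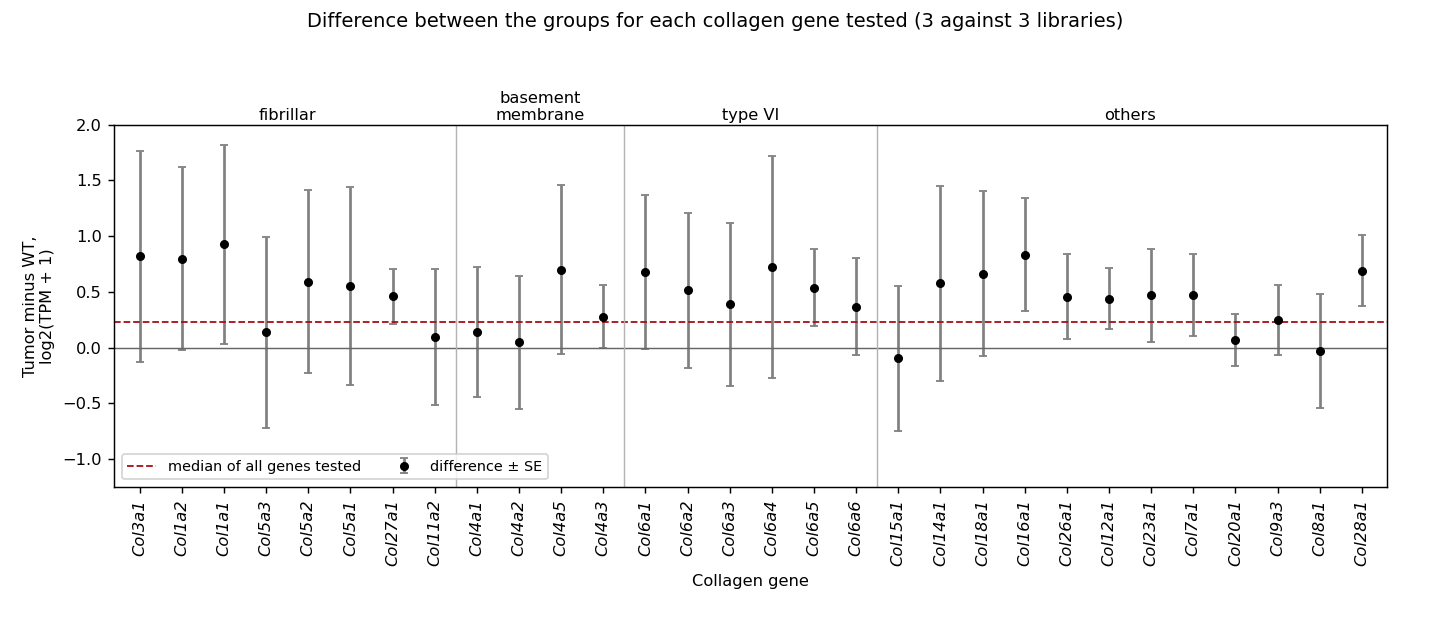
Points give the difference between the groups (Tumor minus WT, log2(TPM + 1)) for each of the 30 collagen genes tested, with bars for the standard error of limma, and the dashed line marks the median of all 14144 genes (0.23). Points lie above 0 for 28 of 30 genes, and the widest bars belong to the genes that are high in Tumor 1 or, for Col6a4, low in WT 3.

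The chains of types I and III, the main fibre-forming collagens of skin and fat, were the most abundant fibrillar members. Col3a1, the sole chain of type III (chromosome 1, 45311538 to 45349706, GRCm38.p6), stood at 548, 326 and 1102 TPM in WT and at 3869, 829 and 338 TPM in Tumor. Tumor replicate 1 was far above all others, while Tumor replicate 3 lay with the lowest library titled WT. The means were 659 ± 399 and 1679 ± 1913 TPM (SD, n = 3). On the log2(TPM + 1) scale the groups differed by 0.82 with an SE of 0.95 (adjusted p = 0.808, limma). Col1a1, the alpha 1 chain of type I (chromosome 11, 94936224 to 94953042), stood at 114, 78.0 and 225 TPM in WT and at 891, 177 and 87.3 TPM in Tumor, differing by 0.93 in log2 with an SE of 0.89 (adjusted p = 0.778, limma). Col1a2, the alpha 2 chain (chromosome 6, 4505618 to 4541543), stood at 169, 123 and 337 TPM against 1099, 256 and 132 TPM, differing by 0.80 in log2 with an SE of 0.82 (adjusted p = 0.790, limma). These 3 genes ranked the 6 libraries in the same order, Tumor replicate 1, WT replicate 3, Tumor replicate 2, WT replicate 1, Tumor replicate 3 and WT replicate 2. Without Tumor replicate 1 their differences were -0.14, -0.018 and -0.060.

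The stretches before the start sites of Col1a2 and Col3a1 are shown because these genes shared 1 order of libraries while the sequences differ in composition. They are the 250 bases upstream, 5′ to 3′ on the strand of the gene, from RefSeq on GRCm38.p6, with capitals for GGGCGG (a GC box), CCAAT and TATAAA on either strand. The Col1a2 stretch (chr6:4505368-4505617, plus strand) was 62.0% G or C with 2 GC boxes and 1 CCAAT. The Col3a1 stretch (chr1:45311288-45311537, plus strand) was 35.2% G or C with 1 TATAAA and neither of the other motifs.
Col1a2: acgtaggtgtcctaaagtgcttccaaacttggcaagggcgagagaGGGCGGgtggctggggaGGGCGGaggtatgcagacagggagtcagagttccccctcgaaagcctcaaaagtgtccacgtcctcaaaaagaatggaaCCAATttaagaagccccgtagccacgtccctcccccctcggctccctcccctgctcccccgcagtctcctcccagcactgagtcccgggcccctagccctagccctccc
Col3a1: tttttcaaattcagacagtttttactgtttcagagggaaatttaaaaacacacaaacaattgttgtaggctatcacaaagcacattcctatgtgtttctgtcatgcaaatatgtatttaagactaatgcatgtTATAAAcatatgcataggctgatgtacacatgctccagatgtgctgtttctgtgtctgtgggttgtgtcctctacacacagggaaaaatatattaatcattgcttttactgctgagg

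Over all 32851 promoter windows of that length, 32.7% held GGGCGG, 33.8% CCAAT and 12.4% TATAAA, each counted on both strands. The 38 windows found for 35 collagen symbols held them in 57.9%, 34.2% and 13.2%. A match describes the letters and shows no binding.

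Type V chains, which join type I fibres and limit their width, were lower in level. Col5a3 stood at 58.8, 26.9 and 113 TPM against 161, 73.6 and 19.9 TPM, Col5a2 at 27.1, 16.2 and 66.8 against 131, 43.5 and 18.0 TPM, and Col5a1 at 22.8, 15.1 and 52.7 against 125, 38.7 and 12.0 TPM. All 3 shared the first 4 places of the order seen for type I, with the same libraries high, and overlapped between the groups. Col27a1, a less abundant fibrillar chain known from cartilage, behaved differently. It stood at 5.57, 6.61 and 3.79 TPM in WT and at 7.09, 8.17 and 7.38 TPM in Tumor, so that the groups did not overlap, differing by 0.46 in log2 with an SE of 0.24 (adjusted p = 0.737, limma). Complete separation with Tumor higher was found for 2 of 30 members, Col27a1 and Col28a1, beside 11.8% of all genes tested, and with Tumor lower for 0 of 30, beside 3.24%. Col11a2, another chain known from cartilage, stood at 2.99, 3.98 and 0.545 TPM against 0.794, 2.70 and 4.62 TPM and was lowest in WT replicate 3 and Tumor replicate 1. The cartilage and bone marker list summed to 0.0852 to 1.63 TPM, and none of its 8 genes was tested; Matn3 was listed at 0 in all 6 libraries.

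**Figure D3:**
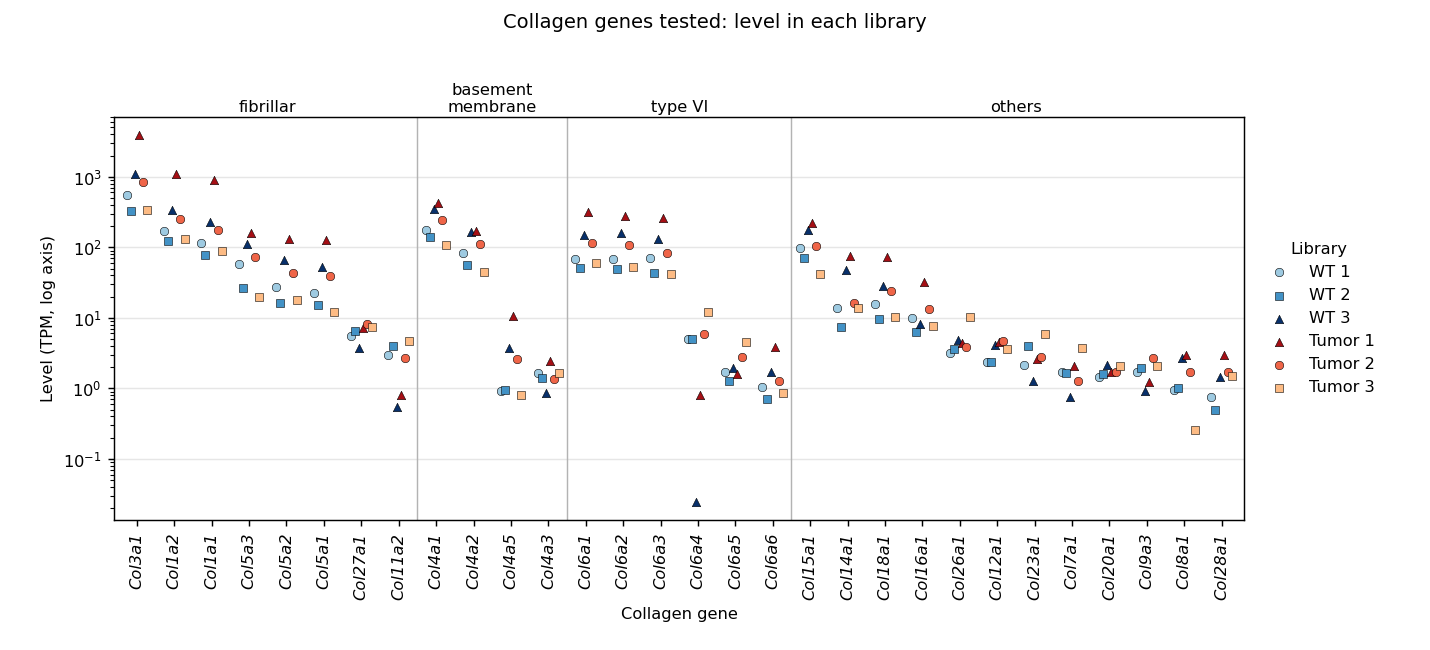
Each point is the TPM of 1 collagen gene in 1 library, on a log axis, for the 30 genes tested, ordered within each class by mean level. Tumor 1 and WT 3 (triangles) stand at the top for the abundant genes, and at the bottom for Col11a2, Col6a4 and Col9a3.

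Type IV collagen of most basement membranes is built from the chains of Col4a1 and Col4a2. Col4a1 (chromosome 8, 11198423 to 11312889, minus strand) stood at 176, 139 and 344 TPM in WT and at 428, 244 and 107 TPM in Tumor, differing by 0.14 in log2 with an SE of 0.58 (adjusted p = 0.944, limma). Col4a2 (chromosome 8, 11312805 to 11449287, plus strand) stood at 83.5, 55.8 and 164 TPM against 170, 111 and 44.8 TPM, differing by 0.05 in log2 with an SE of 0.60 (adjusted p = 0.983, limma). Tumor replicate 1 and WT replicate 3 were again the highest, but here they were close to each other, and Tumor replicate 3 was the lowest for both genes. The signs of both differences turned with median-ratio factors, to -0.09 for Col4a1 and -0.18 for Col4a2. Both genes lie head to head and their RefSeq start sites are at 11312826 (Col4a1) and 11312805 (Col4a2). The gene span of Col4a1 given above reaches beyond this start. The 22 bases between these starts, both included, are shown to place the divergent starts, on the plus strand at chr8:11312805-11312826 (GRCm38.p6), with the whole stretch in capitals because both genes share it.
Col4a1 and Col4a2: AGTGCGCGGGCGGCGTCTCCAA

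The gene models overlap by 85 bases, and whether strand was used to part their reads is not stated. Chains of other type IV networks were scarce. Col4a5 stood at 0.931, 0.956 and 3.68 TPM against 10.7, 2.57 and 0.813 TPM, differing by 0.70 in log2 with an SE of 0.76 (adjusted p = 0.797, limma) that was -0.034 without Tumor replicate 1. Col4a3 stood at 1.67, 1.42 and 0.862 TPM against 2.46, 1.35 and 1.64 TPM (difference in log2 0.28, SE 0.28, limma adjusted p = 0.789). Col4a4 and Col4a6 were not tested and reached 1.51 and 0.394 TPM at most. Other basement membrane proteins (laminins, nidogens, perlecan and agrin) gave 0 of 10 genes past the test in either direction and 5 of 10 positive differences, beside 76.8% of all genes. Agrn (agrin) averaged 15.2 ± 3.40 and 19.6 ± 5.16 TPM and Lama5 (laminin alpha 5) 19.9 ± 6.30 and 21.8 ± 3.08 TPM (SD, n = 3).

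Type VI collagen, a filament abundant around adipocytes, is assembled from the chains of Col6a1, Col6a2 and Col6a3. Col6a1 (chromosome 10, 76708792 to 76726044) stood at 68.5, 51.1 and 150 TPM in WT and at 319, 115 and 59.6 TPM in Tumor, differing by 0.68 in log2 with an SE of 0.69 (adjusted p = 0.789, limma). Col6a2 (chromosome 10, 76595756 to 76623630) stood at 67.5, 49.9 and 157 TPM against 276, 106 and 52.9 TPM (difference in log2 0.51, SE 0.70, limma adjusted p = 0.829). Col6a3 (chromosome 1, 90766860 to 90844001), whose last domain is cut off as endotrophin, stood at 70.1, 43.6 and 130 TPM against 258, 83.3 and 41.4 TPM (difference in log2 0.39, SE 0.73, limma adjusted p = 0.869). Tumor replicate 1 was the highest library for all 3 genes, and the groups overlapped. Without Tumor replicate 1 the differences were 0.037, -0.11 and -0.32.

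The 250 bases before the start sites of Col6a1 (chr10:76726045-76726294, minus strand) and Col6a3 (chr1:90843972-90844221, minus strand) are shown since their products enter the same filament. For Col6a3 the window was counted from the RefSeq start at 90843971, and the gene span given above reaches beyond that start into the window. Neither holds any of the 3 motifs on either strand, and their content of G and C is 56.0% and 57.2% (RefSeq, GRCm38.p6).
Col6a1: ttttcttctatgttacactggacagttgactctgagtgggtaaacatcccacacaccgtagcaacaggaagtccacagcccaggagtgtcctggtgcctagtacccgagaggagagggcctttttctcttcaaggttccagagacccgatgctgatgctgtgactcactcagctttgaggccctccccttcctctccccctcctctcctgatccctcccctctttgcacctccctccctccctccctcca
Col6a3: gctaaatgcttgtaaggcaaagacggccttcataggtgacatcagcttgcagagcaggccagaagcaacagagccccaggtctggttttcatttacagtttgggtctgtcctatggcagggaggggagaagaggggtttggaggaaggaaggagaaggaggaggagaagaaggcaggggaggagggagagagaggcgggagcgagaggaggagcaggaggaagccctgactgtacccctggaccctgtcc

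The 3 remaining type VI genes lie side by side on chromosome 9 and did not share 1 pattern. Col6a4 stood at 4.95, 5.03 and 0.0247 TPM in WT and at 0.802, 5.95 and 12.3 TPM in Tumor (difference in log2 0.73, SE 1.00, limma adjusted p = 0.830). It was thus lowest in the libraries that held 8.11 and 9.34 TPM of B and plasma cell markers, and highest in Tumor replicate 3, which held 2673 TPM of them, and the part of those cells in its level was not tested. Without WT replicate 3 its difference was -0.12. Col6a5 stood at 1.70, 1.28 and 1.95 TPM against 1.60, 2.81 and 4.61 TPM (difference in log2 0.54, SE 0.34, limma adjusted p = 0.737). Col6a6 stood at 1.03, 0.715 and 1.73 TPM against 3.87, 1.27 and 0.853 TPM and followed the order of Col6a1.

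Among the others, Col15a1 was the most abundant. It encodes a collagen with heparan or chondroitin sulfate chains that sits at the outer side of basement membranes, and stood at 96.7, 70.2 and 177 TPM in WT and at 220, 106 and 41.7 TPM in Tumor (difference in log2 -0.10, SE 0.65, limma adjusted p = 0.967). Col18a1, the related collagen that yields endostatin, stood at 15.5, 9.77 and 28.7 TPM against 73.7, 23.8 and 10.3 TPM (difference in log2 0.66, SE 0.74, limma adjusted p = 0.804). Both were highest in Tumor replicate 1 and WT replicate 3. Of the collagens that coat fibrils, Col14a1 stood at 13.9, 7.41 and 47.4 TPM against 76.2, 16.3 and 14.0 TPM (difference in log2 0.58, SE 0.87, limma adjusted p = 0.842). Col16a1 stood at 10.1, 6.35 and 8.21 TPM against 32.7, 13.4 and 7.73 TPM (difference in log2 0.83, SE 0.51, limma adjusted p = 0.737). Unlike Col14a1, it stood within the range of the other WT libraries in WT replicate 3. Col12a1 stood at 2.36, 2.38 and 4.12 TPM against 4.59, 4.66 and 3.57 TPM (difference in log2 0.44, SE 0.27, limma adjusted p = 0.737).

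Col28a1, a collagen known from Schwann cell basement membranes of peripheral nerve, had the smallest unadjusted p of the family. It stood at 0.744, 0.496 and 1.43 TPM in WT and at 2.93, 1.69 and 1.51 TPM in Tumor, without overlap, with a log2 difference of 0.69 (SE 0.32, unadjusted p = 0.0726 and adjusted p = 0.737, limma). Its levels are low, and the gap between WT replicate 3 and Tumor replicate 3 is small. Schwann cell markers moved with it in part: their 7 genes summed to 53.8, 52.6 and 177 TPM in WT and to 299, 231 and 93.2 TPM in Tumor. Their part in the Col28a1 level was not tested. The other tested members of this class (Col26a1, Col23a1, Col7a1, Col20a1, Col9a3 and Col8a1) ranged from 0.259 to 10.2 TPM with log2 differences from -0.03 to 0.47.

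The order of the libraries, rather than the group, separated most members. Both WT replicate 3 and Tumor replicate 1 lay above all other 4 libraries for 17 of 30 members, beside 22.2% of all genes tested, and below them for 3 of 30, beside 23.4%. The 3 were Col11a2, Col6a4 and Col9a3. Tumor replicate 1 was the highest library for 20 of 30 members, beside 23.6% of all genes. The order Tumor replicate 1, WT replicate 3, Tumor replicate 2 and WT replicate 1, with the remaining libraries last, held for 14 of 30 members, beside 5.54% of all genes. These 14 were 6 fibrillar genes, Col4a1, Col4a2, 4 type VI genes, Col15a1 and Col18a1. This division of the libraries was seen in these data and is not a group of the study, so the counts are a description.

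Tumor replicate 1 and WT replicate 3, which share the low B cell content, differed from each other by class in the summed levels, but hardly in the medians of single fibrillar, type IV and type VI genes. With 1 library on each side there is no test. The summed fibrillar level of Tumor replicate 1 was 3.31-fold that of WT replicate 3, that of type VI 1.95-fold and that of type IV 1.19-fold. The median fold over the single genes tested was 2.17 for fibrillar, 2.06 for type VI and 2.05 for type IV genes. The sums are thus set by the most abundant genes of each class. Over the 30 members the fold ran from 0.815 for Col20a1 to 32.4 for Col6a4, whose level in WT replicate 3 was 0.0247 TPM. Next to Col6a4 came Col16a1 at 3.98-fold, Col1a1 at 3.96-fold, Col3a1 at 3.51-fold and Col1a2 at 3.26-fold. Lower values were 2.91-fold for Col4a5, 2.86-fold for Col4a3, 2.38-fold for Col5a1 and 2.13-fold for Col6a1. Col5a3 stood at 1.43-fold, Col4a1 at 1.25-fold and Col4a2 at 1.04-fold. The members below 1 were Col20a1, Col6a5 (0.819-fold) and Col26a1 (0.909-fold). A value of at least 2-fold was found for 14 of 30 members, beside 8.66% of all genes, and the median over all genes was 1.14-fold. Median-ratio factors divide each of these folds by 1.13 and leave their order as it is. Other contents differed between these libraries as well. The fibroblast and progenitor markers of Tumor replicate 1 were at 1.39-fold, the macrophage markers 2.89-fold, the Schwann cell markers 1.69-fold and the muscle markers 194-fold, while the adipocyte markers were at 0.817-fold and the endothelial markers at 0.887-fold. Their part in the collagen levels was not tested.

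**Figure D4:**
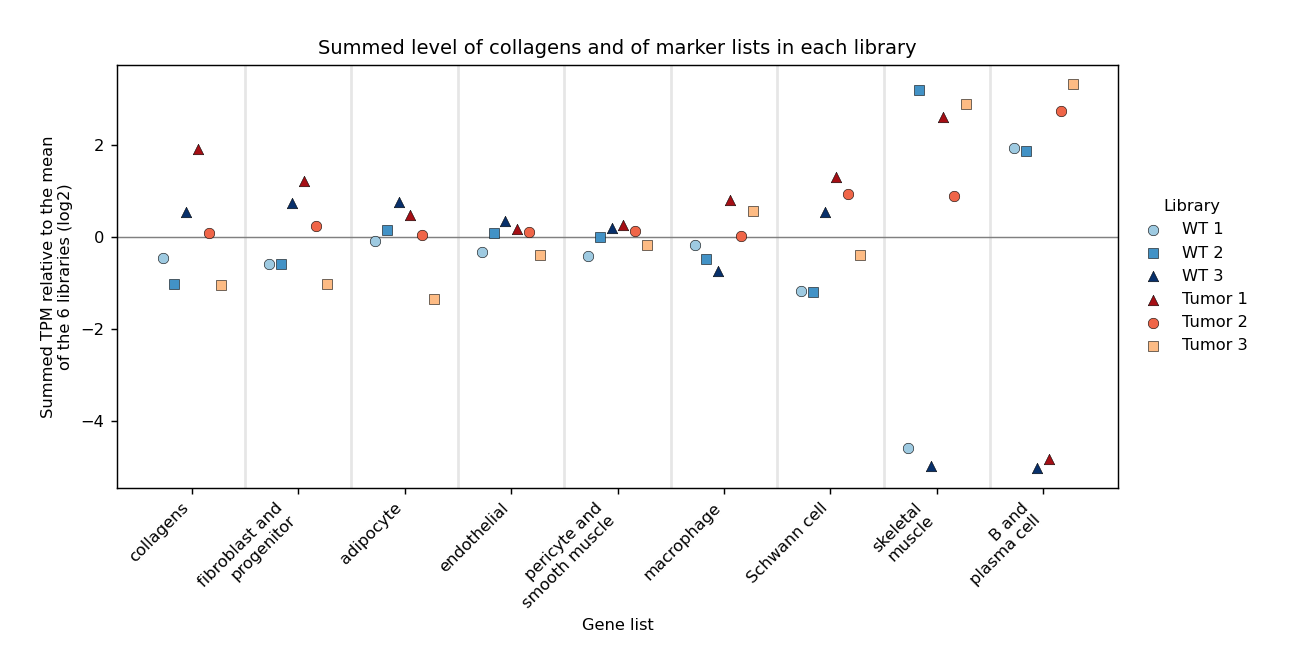
For each gene list, points give the summed TPM of each library relative to the geometric mean of the 6 libraries, on a log2 scale. The collagens and the fibroblast and progenitor markers place Tumor 1 first and WT 3 second, the B and plasma cell markers place these libraries last, and the skeletal muscle markers are lowest in WT 1 and WT 3.

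The fibroblast and adipocyte progenitor markers, summed, placed the 6 libraries in the same order as the summed collagens. Their 12 genes summed to 3275, 3238 and 8167 TPM in WT and to 11388, 5785 and 2424 TPM in Tumor, and 9 of 12 were highest in Tumor replicate 1. Gsn was the most abundant of them, with 1890, 2016 and 5362 TPM in WT and 7325, 4078 and 1146 TPM in Tumor. The size of the sum and the ratio to it given below therefore rest largely on this gene. The order of the sum does not, as Gsn placed WT replicate 2 above WT replicate 1. Pi16, Cd34, Clec3b, Dpt and Mfap5 each showed the full order of the sum, and the other markers of the list did not. Thy1 and Icam1, which lymphoid and endothelial cells also express, were lowest in WT replicate 3 and Tumor replicate 1. Collagen TPM divided by the sum of these markers was 0.482, 0.327 and 0.384 in WT and 0.719, 0.395 and 0.434 in Tumor, a ratio chosen after the values were seen. Its highest value was again in Tumor replicate 1, and the other 2 libraries titled Tumor lay within the range of those titled WT. The summed macrophage markers separated the groups, with 1461, 1184 and 991 TPM in WT and 2861, 1682 and 2421 TPM in Tumor. Lyz2 made up most of this sum, with 1234, 978 and 733 TPM against 2214, 1401 and 2167 TPM. Of the 8 markers 4 separated the groups with Tumor higher, beside 11.8% of all genes tested. Mrc1 and Cd163 had negative log2 differences (-0.14 and -0.06). The sum was lowest in WT replicate 3, which had more collagen than either of the other libraries titled WT. Lyz2, Cd68 and Fcgr1 were lowest there too, but the other macrophage markers were not. Adipocyte markers summed to 31332, 36758 and 56080 TPM against 45829, 34059 and 13007 TPM. Collagen TPM divided by this adipocyte sum was 0.0503, 0.0288 and 0.0559 in WT and 0.179, 0.0671 and 0.0810 in Tumor. Unlike the ratio to fibroblast markers, it did not overlap between the groups, and it was not tested. The gap between WT replicate 3 and Tumor replicate 2 was small. This ratio was likewise not planned before the values were seen. Cfd and Fabp4, averaging 17321 and 10719 TPM over the 6 libraries, made up most of the adipocyte sum. Epidermis markers summed to at most 7.61 TPM and mammary epithelium markers to at most 16.3 TPM, with Wap listed at 0 in all 6 libraries.

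Ratios between chains within a library do not depend on the scaling between libraries. Col1a1 to Col1a2, the chains of type I, was 0.672, 0.632 and 0.667 in WT and 0.810, 0.693 and 0.661 in Tumor, a log2 difference of 0.13 (exact permutation p = 0.3). Col1a1 to Col3a1 was 0.208, 0.239 and 0.204 against 0.230, 0.214 and 0.258, a log2 difference of 0.11 (exact permutation p = 0.4). Col4a1 to Col4a2 was 2.11, 2.49 and 2.09 against 2.52, 2.20 and 2.40, a log2 difference of 0.09 (exact permutation p = 0.3). These 3 ratios overlapped between the groups, although the levels themselves differed far more between libraries. Col6a1 to Col6a2 was 1.01, 1.02 and 0.953 in WT and 1.15, 1.08 and 1.13 in Tumor. Every library titled Tumor was higher here, with means of 0.997 ± 0.0383 and 1.12 ± 0.0368 (SD, n = 3). The log2 difference of 0.17 had the smallest p the design allows (exact permutation p = 0.1, and 0.4 after Benjamini-Hochberg adjustment over the 4 ratios). Leaving out each library in turn gave differences from 0.14 to 0.19. Col6a3 to Col6a1, looked at after these values were seen, was 1.02, 0.853 and 0.867 in WT and 0.810, 0.726 and 0.695 in Tumor, without overlap. It shares Col6a1 with the ratio before it, so it is not a separate result. Col5a1 to Col5a2 was 0.843, 0.937 and 0.789 in WT and 0.956, 0.891 and 0.663 in Tumor, with overlap.

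**Figure D5:**
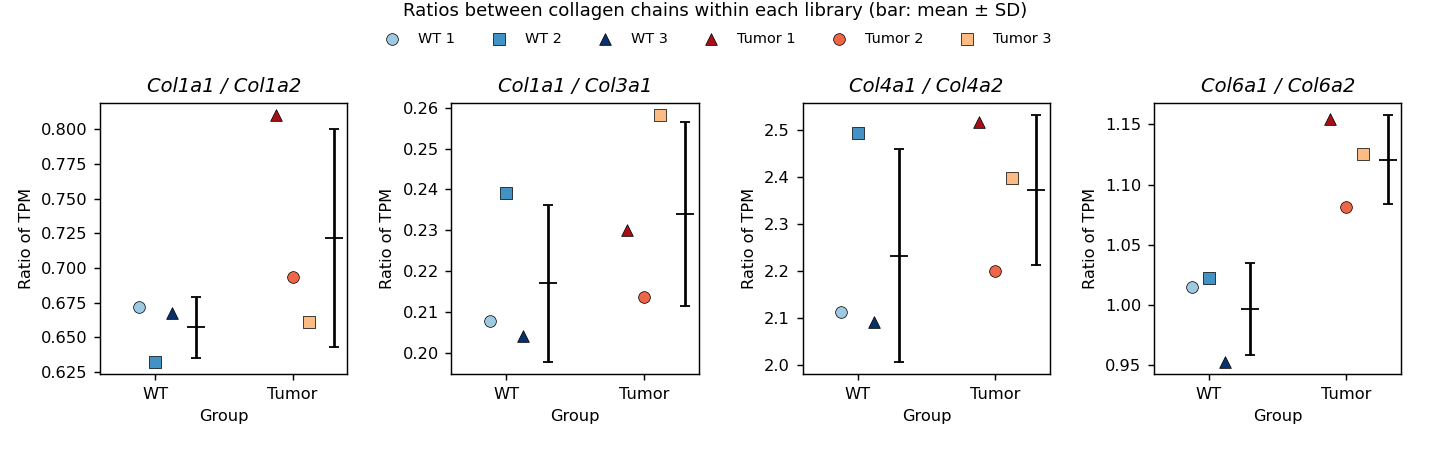
Each panel gives the ratio of TPM of 1 pair of collagen genes in each library, with the mean ± SD of the 3 libraries of a group beside the points; the axes do not start at 0. The groups overlap for the first 3 pairs, whereas for Col6a1 to Col6a2 the libraries titled Tumor lie between 1.08 and 1.15, all above those titled WT.

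Genes that make, process, bind and degrade collagen gave no call either. Over 8 lists, 86 of 95 genes were tested, with 0 past the test in either direction. At an unadjusted p below 0.05 there were 2 of 86, beside 5.45% of all genes, and groups that did not overlap with Tumor higher were found for 7 of 86, beside 11.8%. Of the 86, 70 were highest in Tumor replicate 1, beside 23.6% of all genes. Colgalt1, which puts galactose on hydroxylysine of collagen, had the smallest p of the folding and modification list. It stood at 51.2, 39.6 and 46.6 TPM in WT and at 74.4, 76.5 and 81.7 TPM in Tumor, without overlap and without the peak in Tumor replicate 1, with a log2 difference of 0.75 (SE 0.16, unadjusted p = 0.00276, limma adjusted p = 0.737). Mia3, which loads procollagen into transport carriers, stood at 80.0, 56.5 and 83.1 TPM against 102, 102 and 96.2 TPM, also without overlap (difference in log2 0.46, SE 0.19, limma adjusted p = 0.737). Of the 21 genes tested in that list 20 were positive, beside 76.8% of all genes, and the median was 0.23, equal to that of all genes to 2 decimals. The procollagen chaperone Serpinh1 was highest in Tumor replicate 1 and WT replicate 3, as the abundant collagens were, with 269, 206 and 466 TPM against 576, 255 and 141 TPM.

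Among cross-linking enzymes Loxl3 stood at 6.59, 2.93 and 8.27 TPM in WT and at 13.0, 10.9 and 9.46 TPM in Tumor, without overlap (difference in log2 0.89, SE 0.36, limma adjusted p = 0.737). Loxl2 stood at 9.74, 6.60 and 27.1 TPM against 53.9, 14.3 and 5.63 TPM, in the order of the collagens. Of the enzymes that cut propeptides, Bmp1 stood at 21.1, 15.1 and 56.4 TPM against 96.8, 30.0 and 17.9 TPM and Adamts14 at 2.10, 1.30 and 3.19 against 5.13, 2.12 and 2.20 TPM. Of the proteins that attach to fibrils, the proteoglycan Bgn (biglycan) stood at 141, 111 and 161 TPM against 296, 170 and 188 TPM, without overlap (difference in log2 0.63, SE 0.27, limma adjusted p = 0.737). Postn (periostin), a matrix protein of fibroblasts, stood at 66.1, 74.7 and 96.1 TPM against 447, 96.3 and 79.1 TPM, and only Tumor replicate 1 stood apart among the 6 libraries.

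The median fold of Tumor replicate 1 over WT replicate 3 was largest for the degradation list among these 8 lists, at 2.13 over 8 genes tested. Mmp14, a membrane-bound collagenase, stood at 54.8, 39.4 and 67.2 TPM in WT and at 162, 54.6 and 52.0 TPM in Tumor, and Timp1, an inhibitor of such enzymes, at 6.03, 4.09 and 8.19 against 21.6, 4.64 and 8.14 TPM. For both genes the other 2 libraries titled Tumor lay within the range of WT. Of the receptors, the integrin subunit Itgb1 averaged 103 ± 28.6 and 132 ± 35.5 TPM and the leukocyte collagen receptor Lair1 7.05 ± 4.61 and 12.5 ± 2.56 TPM (SD, n = 3). Of TGF-beta signalling, the pathway known to drive collagen transcription, 14 of 14 genes had a positive difference, beside 76.8% of all genes, with a median of 0.18, below the 0.23 of all genes. Its receptor Tgfbr1 stood at 10.7, 6.87 and 7.38 TPM against 11.6, 11.7 and 12.9 TPM, without overlap, and its ligand Tgfb1 at 62.7, 57.5 and 23.9 against 45.3, 73.0 and 103 TPM (limma adjusted p = 0.737 and 0.738).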

How the data were processed

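Poly-A RNA of subcutaneous white adipose tissue was sequenced in 6 libraries, 3 titled WT and 3 titled Tumor, numbered as biological replicates by the titles, from RNA with an integrity number above 7 per the labels' protocols. P-values measure the spread between these libraries. The table the authors deposited is named as raw counts but holds TPM, as its values show: each column sums to 1000000 and values are not whole. Per the submitters' processing notes the build was GRCm38.p6 and DESeq2 was used, with no version or role; the aligner, quantifier and annotation were not given in the sources used here. TPM keep no depth, so no counting intervals are given, and a rise of other abundant transcripts lowers every share.

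Genes that reached 1 TPM in 3 or more libraries (14144) were tested on log2(TPM + 1) with limma 3.58.1 in R 4.3.3, with a mean-variance trend, robust moderation and group alone, with Benjamini-Hochberg adjustment and a threshold of 0.05. Sums, shares and ratios were compared with exact two-sided permutation tests. Standard errors (SE) are limma's moderated ones. On simulated data for this comparison with 14144 genes and 200 changed, the test recovered 7.4% of genes changed 2-fold and 57% of those changed 4-fold at the observed spread. The changed genes were drawn from those with a mean log2(TPM + 1) above 3, and noise was independent between genes. The recovery therefore does not cover the collagens below that level, nor differences in tissue content shared by many genes. Positions and promoter windows are from RefSeq (GRCm38.p6), where all 44 symbols matched a gene and 35 a promoter window. Members and lists were chosen with earlier results of these data known. Named with statistics were, per class, the 3 highest by mean and the 3 largest differences, the 5 smallest p of the family, and the 2 smallest p of each other list. Other genes are given as values. Serpinh1, Gsn, Thy1, Icam1, Adipoq, Matn3 and Wap were named after their values were seen. So were the other single fibroblast, macrophage and adipocyte markers named. Alternatives were median-ratio and upper-quartile factors, pseudocounts of 0.1 and 0.5, no filter, a filter of 5 TPM, limma without trend or without robust moderation, a replicate block, leaving out each library, and leaving out WT replicate 3 with Tumor replicate 1. Figures were drawn with matplotlib 3.10.9.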

Additional observations from a re-analysis of the deposited data

How the results depend on the processing

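The count of genes past the threshold was 0 for all genes and 0 for collagens under every alternative run, the replicate block (0 of 14144 genes, 0 of 30 collagens) among them. Same-numbered libraries did not deviate together (correlations of -0.76, 0.20 and -0.84 over the tested genes), and the samples share only a number. The median collagen difference of 0.47 was 0.29 with median-ratio and 0.27 with upper-quartile factors and lay between -0.026 and 0.66 on leaving out each library. The log2 difference of summed collagen ran from -0.16 to 1.32 in that way. The type VI share difference of -0.45 points ran from -1.84 to 1.06 and was 1.09 without WT replicate 3 and Tumor replicate 1, where the Col6a1 to Col6a2 difference was 0.12 against 0.17 with all 6. The shares of fibrillar and type IV chains and the other 3 ratios kept their sign in all alternatives run, but the ratios came close to 0 in some: Col1a1 to Col1a2 was 0.043 without Tumor replicate 1 against 0.13, Col1a1 to Col3a1 0.035 without Tumor replicate 3 against 0.11, and Col4a1 to Col4a2 0.0016 without WT replicate 3 and Tumor replicate 1 against 0.09.

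Of 35 genes named by rule, 19 of them collagens, 16 changed sign in at least 1 alternative and 0 passed the test in any (adjusted p of at least 0.431). Leaving out each library gave -0.14 to 1.62 for Col3a1, -0.060 to 1.46 for Col1a2, -0.018 to 1.65 for Col1a1, -0.33 to 0.66 for Col4a1, -0.37 to 0.58 for Col4a2, -0.034 to 1.31 for Col4a5, -0.11 to 1.07 for Col6a2, -0.32 to 0.99 for Col6a3, -0.12 to 1.53 for Col6a4, -0.67 to 0.52 for Col15a1, -0.18 to 1.28 for Col14a1, -0.057 to 1.31 for Col18a1, -0.17 to 1.03 for Bmp1 and -0.39 to 1.14 for Loxl2. Except for Col6a4, which was lowest without WT replicate 3, the lowest value of each came without Tumor replicate 1. With median-ratio and upper-quartile factors Col4a1 gave -0.093 and -0.11, Col4a2 -0.18 and -0.20 and Lama5 -0.060 and -0.081. Without WT replicate 3 and Tumor replicate 1, Col4a3 gave -0.032 and Lama5 -0.024. Apart from the effect of removing a library or rescaling, the cause was not tested. The number of reads is unknown, so the precision of levels near 1 TPM cannot be given.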

Other observations

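The 14 collagen rows that were not tested stayed at or below 2.14 TPM in every library. Col13a1, a transmembrane collagen, was the highest of them, with 0.392, 1.13 and 2.14 TPM in WT and 0.572, 0.928 and 0.499 TPM in Tumor. Col11a1, a fibrillar chain, stood at 0.184, 0.0117 and 0.240 TPM against 0.553, 0.291 and 0.278 TPM, and Col4a6 at 0.104, 0.130 and 0.0949 against 0.394, 0.239 and 0.162 TPM, both without overlap. No other of the 14 rows separated the groups. Among the genes tested, which stood at higher levels, 11.8% separated with Tumor higher. The number of reads behind these values is unknown. Col17a1, the hemidesmosome collagen of epithelia, stood at 0.613, 0.295 and 0.292 against 0.217, 1.32 and 1.01 TPM. Col2a1, the main collagen of cartilage, reached 0.0466 TPM at most, and Col10a1, Col19a1 and Col9a1 were listed at 0 in at least 1 library.

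A few genes of the other lists were lowest in WT replicate 3 and Tumor replicate 1, as Col6a4 was, a pattern held by 23.4% of all genes tested. Tgfb1, given above, was among them. Fmod (fibromodulin), a fibril-binding proteoglycan, stood at 9.88, 10.9 and 0.963 TPM in WT and at 2.70, 12.0 and 20.7 TPM in Tumor, and Smad7, an inhibitor of TGF-beta signalling, at 11.2, 7.77 and 2.23 against 2.74, 11.3 and 19.8 TPM. Fmod and Smad7 were named after their values were seen.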
